A study of Mus musculus with 594 samples.

Results

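Alpha-TC1 cells, a glucagon-producing line from a mouse pancreatic endocrine tumour, were followed for 1 day in the solvent DMSO with no compound. The samples were all alpha-TC1 arrays whose titles name the DMSO control: 42 of the 594 arrays of the series, in 3 groups of 14 lysed 1 h, 6 h and 24 h after DMSO had been added. Each of 7 batches held 2 arrays of every group, so time and batch were fully balanced. Cells of both lines had been plated the day before in low-glucose medium with fetal bovine serum, and every well of the series received DMSO, with or without a compound. Beta-TC3 cells, an insulin-producing mouse tumour line, were used as a comparison, with 34 DMSO arrays of the same batches (12 at 1 h, 10 at 6 h and 12 at 24 h). Alpha-TC1 and beta-TC3 arose in mice that carry a viral large T antigen under a glucagon or an insulin promoter, and each stands here for a single tumour line. The labels do not say that arrays of 1 batch came from separate cultures, so the p-values measure the spread between arrays. Because the first time was 1 h and no array without DMSO enters, an effect of the solvent, of handling the wells and of time in the medium cannot be told apart.

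Cells that receive a stimulus start with a well-known first wave of transcription. Immediate early genes, which need no new protein to be switched on, peak within the first hours and encode transcription factors such as Egr1, Fos and Nr4a1. Their messages are short-lived, and feedback inhibitors such as Dusp6 and Dusp1, phosphatases of MAP kinases, are made alongside them. Cells answer a shortage of oxygen, nutrients or sterols more slowly and through separate regulators: HIF for oxygen, FOXO factors for growth factors and nutrients, ATF4 for amino acids, SREBP2 for sterols and the ChREBP and Mondo factors for glucose.

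Levels are log2 of the deposited array intensity, and 11807 genes were tested. A difference was called at a Benjamini-Hochberg adjusted p under 0.05 over all of them, in a limma fit with time and batch, and "rose" or "fell" is written only of called differences. The median of all values on an array was 4.38 to 4.60, and the lowest correlation between 2 arrays of the same time was 0.981. Most measured alpha cell markers separated all 42 arrays from beta-TC3, and beta cell markers did so in part. The message of glucagon (Gcg) lay at 11.90 to 12.88, against 6.18 to 10.67 in beta-TC3, and the alpha cell transcription factors Irx1 and Irx2 lay above every beta-TC3 array. Another alpha cell marker, the thyroid hormone carrier Ttr, went the other way, at 10.90 to 11.91 against 12.66 to 12.99. Insulin (Ins2) lay at 3.31 to 7.75, against 13.01 to 13.49, and the beta cell factor Pdx1 at 3.10 to 4.95, against 8.55 to 9.85. The markers G6pc2 and Pcsk1 also lay below every beta-TC3 array. The factors Nkx2-2 and Nkx6-1 overlapped between the lines, at 7.12 to 8.37 against 7.46 to 8.54 and 5.04 to 6.30 against 6.27 to 7.91. Slc2a2 and Ucn3 overlapped at low levels. In 4 arrays (1 h in batches 5, 6 and 7, and 6 h in batch 6) Ins2 was above 7, between 7.20 and 7.75, and somatostatin (Sst) and neuropeptide Y (Npy), both abundant in beta-TC3, were high as well. The fits were repeated without these 4 arrays. Of the measured markers of exocrine, duct, fibroblast, endothelial and immune cells, 18 of 20 lay no higher than 4.17 in any array. The others were the elastase Cela1 (5.41 to 6.81) and the macrophage marker Cd68 (3.12 to 5.15), which both fell at 24 h against 1 h, by 0.30 and 0.43. The Cela1 call was lost under 9 of 18 alternatives, among them without the 4 arrays, with the 2 arrays of each batch and time averaged and without batch 5, 6, 8, 9 or 10, and the Cd68 call under 2 of 17. Their part in other results was not tested.

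Few genes changed over time in DMSO, and most by little. Between 1 h and 6 h, 182 genes rose and 156 fell, 2.86% of those tested (percent called 1.54 for rises and 1.32 for falls). By 24 h, 579 genes had risen and 292 had fallen against 1 h, 7.38% of those tested (4.90 for rises and 2.47 for falls). From 6 h to 24 h 399 genes rose and 122 fell, 4.41% (3.38 and 1.03). The median size of a called difference was 0.28 to 0.29 on the log2 scale. Without a batch term the 3 counts were 107, 366 and 162, and without the 4 arrays with high Ins2 308, 808 and 490. Leaving out batch 10 gave 156 at 6 h, leaving out batch 8 gave 549 at 24 h against 1 h and 310 against 6 h, and leaving out batch 4 gave 341 against 6 h. A change of at least 1 log2 unit (2-fold) was seen for 2 genes that fell by 6 h, and by 24 h for 1 gene that rose and 4 that fell. In RNA from whole wells, fewer cells that express a gene and less of its RNA per cell cannot be told apart. The 3 comparisons share arrays, so their counts are not independent of each other. The rises outnumbered the falls at 24 h less clearly under another scaling: 66.5% of calls against 1 h were rises, against 54.5% after quantile normalization and 52.3% after centring each array on its median. From 6 h to 24 h the shares were 76.6%, 60.4% and 59.0%.

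The calls in the 3 comparisons sorted genes by time course. An early change, called at 6 h and at 24 h against 1 h and not between the later times, was shown by 161 genes, of which 112 rose and 49 fell. A late change, called at 24 h against both earlier times and not at 6 h, was shown by 251 genes, 190 up and 61 down. A transient change, called at 6 h and reversed by 24 h, was shown by 54 genes, of which 45 dipped at 6 h and 9 peaked. A change that went on in the same direction at each step was called for 10 genes, and one partly undone for 4. There were 35 transient genes without the 4 arrays with high Ins2. Leaving out batch 9 or 10 gave 107 or 82 early genes, leaving out batch 8 gave 141 late genes, and leaving out batch 4, 6 or 10 gave 34, 25 or 27 transient genes. A step that was not called is not shown to be flat, and 756 genes had calls that fit none of these courses.

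Egr1, a zinc finger transcription factor of the first wave, had the largest fall of all genes. Its level was 6.04 to 7.65 (median 6.97) at 1 h, 3.62 to 5.11 (median 4.33) at 6 h, and 3.69 to 5.21 (median 4.19) at 24 h. Every 1 h array was above every later array, and the later times overlapped. The difference from 1 h was -2.59 ± 0.13 (SE, adjusted p = 7.49e-19) at 6 h, 6.01-fold lower, and -2.74 ± 0.13 (SE, adjusted p = 8.73e-20) at 24 h, 6.68-fold lower, with a fall in 7 of 7 batches each time. The step from 6 h to 24 h was -0.15 ± 0.13 and was not called (adjusted p = 0.631). Groups of arrays that do not overlap at all were seen for 3 genes between 1 h and 6 h, 0.0254% of those tested, and for 2 genes between 1 h and 24 h, 0.0169%. Egr1 and Fos are in both counts, and the third is Ammecr1l, which rose by 0.38 (adjusted p = 8.75e-07) at 6 h.

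Fos, which pairs with Jun proteins to form the factor AP-1, fell in steps. It lay at 7.15 to 8.24 (median 7.61) at 1 h, at 5.04 to 7.02 (median 5.62) at 6 h, and at 3.56 to 6.03 (median 5.16) at 24 h. The 1 h arrays were all above the rest, and the 6 h and 24 h arrays overlapped. Fos differed by -1.81 ± 0.16 (SE, adjusted p = 9.94e-11) at 6 h and by -2.52 ± 0.16 (SE, adjusted p = 1.41e-15) at 24 h, and its further fall from 6 h to 24 h was -0.71 ± 0.16 (SE, adjusted p = 0.0034), lower in 7 of 7 batches. The 6 h level was uneven between batches: in batch 9 the mean was still 6.94, a difference of -0.80 from its 1 h mean, while the other 6 batches lay between -2.38 and -1.21. Without a batch term the call from 6 h to 24 h was lost (adjusted p = 0.0505).

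Nr4a1, an orphan nuclear receptor gene strongly induced by calcium and cAMP, started high and declined more slowly. Its arrays lay at 7.13 to 9.12 (median 7.81) at 1 h, at 6.44 to 8.63 (median 7.0) at 6 h, and at 5.90 to 7.60 (median 6.70) at 24 h. The groups overlapped at each step, and batches 8, 9 and 10 were the highest at 1 h. The difference was -0.68 ± 0.11 (SE, adjusted p = 0.000135) at 6 h and -1.35 ± 0.11 (SE, adjusted p = 1.31e-11) at 24 h. Batch 9 again stood apart at 6 h, with a mean of 8.58 against 8.47 at 1 h, and was down to 6.75 at 24 h. Without a batch term the 6 h call (adjusted p = 0.159) and the call from 6 h to 24 h (adjusted p = 0.134) were lost. The related receptor gene Nr4a2 differed by -0.32 (adjusted p = 0.046) at 6 h and by -0.44 (adjusted p = 0.00147) at 24 h.

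**Figure D1:**
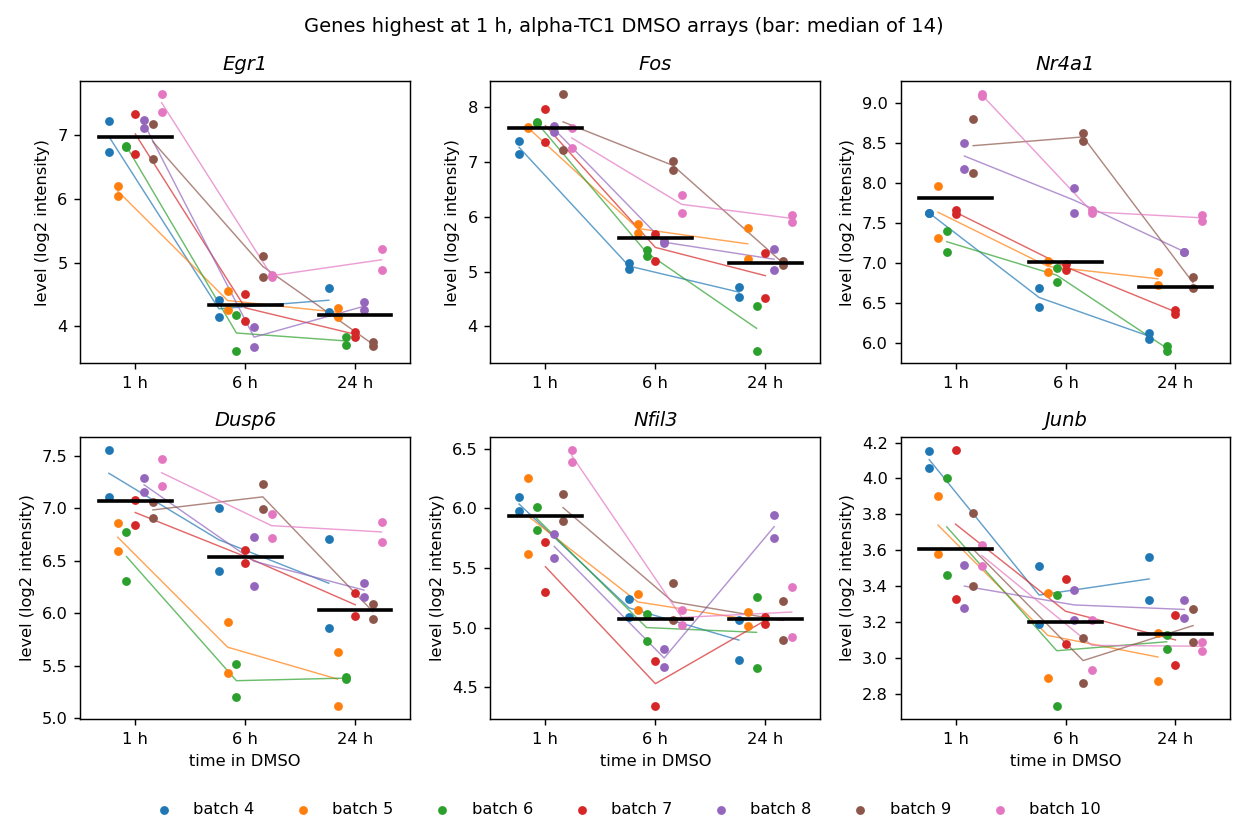
Log2 intensity of 6 genes on each of the 42 alpha-TC1 DMSO arrays at 1, 6 and 24 h; colours and thin lines mark the 7 batches (line through the mean of 2 arrays) and black bars the median of 14 arrays. The Egr1 median drops from 6.97 to 4.33 by 6 h, Fos and Nr4a1 go on falling to 24 h, and Nfil3 is back up at 24 h in batch 8.

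Of the 26 immediate early transcription factor genes measured, 7 fell at 6 h (Egr1, Fos, Nr4a1, Junb, Atf3, Klf4 and Nr4a2) and none rose, against 1.32% of all genes that fell. The list's median was -0.02, beside 0.00 for all genes. Junb, the AP-1 partner of Fos, went from a median of 3.60 to 3.20 and 3.14 and differed by -0.54 ± 0.08 (SE, adjusted p = 4.62e-05) at 6 h. Its 1 h levels, at most 4.16, were below the median of every array. Atf3, a stress-induced factor, differed by -0.50 (adjusted p = 0.0125) at 6 h, and its 24 h difference of -0.27 was not called (adjusted p = 0.208). Klf4, a zinc finger factor linked to growth arrest, fell by 0.45 at 6 h and by 0.43 at 24 h. By 24 h 6 members had fallen and Klf6 had risen by 0.48 (adjusted p = 0.00705), a call lost without batch 8. Without the 4 arrays with high Ins2, 5 members fell at 6 h. The count was 3 without a batch term and 4 without batch 4, 5 or 10. The growth regulator Myc lay between 3.18 and 4.26 in all arrays and was not called at any time.

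The 250 bases before the start of Fos and Nr4a1 are shown because both genes are known to respond to cAMP through the element that CREB binds, and the matches to its core TGACG on either strand (CGTCA on the other) are in capitals. Coordinates and letters are those of RefSeq on GRCm38.p6. The Fos stretch is chr12:85473640-85473889 on the plus strand, and that of Nr4a1 is chr15:101266596-101266845 on the plus strand.
Fos: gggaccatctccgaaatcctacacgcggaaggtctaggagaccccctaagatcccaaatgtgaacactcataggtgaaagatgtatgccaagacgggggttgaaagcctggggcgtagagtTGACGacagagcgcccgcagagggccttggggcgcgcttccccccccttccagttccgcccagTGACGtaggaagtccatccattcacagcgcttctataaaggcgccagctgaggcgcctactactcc
Nr4a1: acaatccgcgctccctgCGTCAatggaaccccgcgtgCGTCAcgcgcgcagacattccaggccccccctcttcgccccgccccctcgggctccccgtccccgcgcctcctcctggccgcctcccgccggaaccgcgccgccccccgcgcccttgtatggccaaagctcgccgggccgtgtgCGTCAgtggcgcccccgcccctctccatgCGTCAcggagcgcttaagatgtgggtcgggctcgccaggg
Fos holds 2 matches and Nr4a1 holds 4. Of the 7 fallen members 6 have a promoter in the table, and all 6 hold the core. It was found in 17 of 47 promoters of the genes with an early or continuing fall (36.2%), and in 23.7% of the 9430 measured genes with a promoter. Of genes in lists described below that fell at 6 h, 1 of 4 feedback inhibitors and 3 of 5 clock genes held the core. Genes that rose at 24 h held it too: 3 of 4 with a promoter in the FOXO list and 1 of 11 in the glycolysis and hypoxia list. A match describes the letters only.

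A few feedback inhibitors of growth factor and cAMP signalling also fell. Of 18 measured, 4 fell at 6 h, beside 1.32% of all genes: Dusp6, Dusp1, Nfkbia and Errfi1. The count was 2 without a batch term and 3 without the 4 arrays with high Ins2. Dusp6, which switches off ERK, lay at 6.31 to 7.56 (median 7.07) at 1 h, at 5.20 to 7.23 (median 6.54) at 6 h, and at 5.11 to 6.87 (median 6.03) at 24 h. Its arrays overlapped at every step, with batches 5 and 6 lowest from 6 h on. It differed by -0.63 ± 0.10 (SE, adjusted p = 0.000163) at 6 h and by -1.0 ± 0.10 (SE, adjusted p = 7.55e-09) at 24 h, lower in 6 of 7 batches at 6 h, where batch 9 differed by 0.13, and in 7 of 7 at 24 h. Its call between 6 h and 24 h (-0.37, adjusted p = 0.0309) was lost when the 2 arrays of each batch and time were averaged. Dusp1 differed by -0.37 (adjusted p = 0.00177) at 6 h and by -0.38 (adjusted p = 0.00047) at 24 h. Nfkbia, the inhibitor of NF-kB, differed by -0.39 (adjusted p = 0.00217) and -0.36 (adjusted p = 0.00177). Errfi1, an inhibitor of the EGF receptor, dipped at 6 h (-0.25, adjusted p = 0.0252) and recovered (0.26, adjusted p = 0.0152 from 6 h to 24 h).

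Some genes of the BMP and TGF-beta response went down in the same period. Of 9 measured, 3 fell at 6 h and 5 at 24 h, beside 1.32% and 2.47% of all genes, while Tgif1, a repressor of this pathway, rose by 0.43 (adjusted p = 0.000174). Id3, an inhibitor of differentiation factors, differed by -0.38 ± 0.09 (SE, adjusted p = 0.00713) at 6 h and -0.69 ± 0.09 (SE, adjusted p = 7.53e-07) at 24 h, lower in 7 of 7 batches both times. The counts were 1 and 2 without a batch term, and 4 fell at 24 h without the 4 arrays with high Ins2. Its relatives Id2 and Id1 differed by -0.38 (adjusted p = 0.000616) and -0.38 (adjusted p = 0.0196) at 24 h, Id1 with no call at 6 h (0.04). Skil, a co-repressor of SMAD proteins, fell by 0.41 at 6 h. The list's median at 24 h was -0.32, beside 0.01 for all genes.

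The genes whose levels followed Egr1 most closely over the 42 arrays, after removal of batch means, were Fos (Pearson r = 0.933), Nfil3 (0.811), Nr4a1 (0.809), Plk2 (0.801), Mcl1 (0.795), Dusp6 (0.791), Lrrk2 (0.783) and Per1 (0.772). These values describe the same arrays and times as the comparisons above. Plk2, a serum-induced kinase, differed by -0.51 ± 0.08 (SE, adjusted p = 2.56e-05) at 6 h and -0.74 ± 0.08 (SE, adjusted p = 3.43e-09) at 24 h. Mcl1, a survival factor of the BCL2 family with a short-lived product, fell by 0.43 by 24 h. Its other probe sets differed by -0.13 and -0.23. Npr3, the clearance receptor for natriuretic peptides, and Slc30a1, a zinc exporter, also fell early, by 0.68 and 0.56 at 6 h. The other Npr3 probe sets, with low 1 h means of 3.86 and 3.51, differed by -0.10 and -0.05.

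Clock genes moved at different times. Of 16 measured, 5 fell and 1 rose at 6 h, and 4 fell and 2 rose at 24 h, both against 1 h. Among all genes 1.32% fell and 1.54% rose at 6 h, and 2.47% and 4.90% at 24 h. The 5 falls at 6 h became 3 without the 4 arrays with high Ins2, with arrays averaged or without a batch term, ran from 3 to 7 over all alternatives, and moved by over 1.5 times without batch 5, 6 or 7. The rise at 6 h was lost under 9 of them, among them without batch 5, 7, 8, 9 or 10. The 2 rises at 24 h ran from 0 to 3, and moved without batch 7, 8 or 9. Nfil3, a repressor of clock output that is also induced by cAMP, lay at 5.30 to 6.49 (median 5.93) at 1 h, at 4.34 to 5.37 (median 5.08) at 6 h, and at 4.66 to 5.94 (median 5.08) at 24 h. At 6 h only an array of batch 9 reached above the lowest 1 h array, and at 24 h batch 8 was back at a mean of 5.85, against 5.68 at 1 h. Nfil3 differed by -0.94 ± 0.11 (SE, adjusted p = 1.92e-07) at 6 h and -0.78 ± 0.11 (SE, adjusted p = 2.82e-06) at 24 h. Per1, a core repressor of the clock that serum and cAMP induce, fell to a median of 4.91 from 5.31, a difference of -0.38 (adjusted p = 0.000315), and differed by -0.44 (adjusted p = 1.41e-05) at 24 h. Dbp, Nr1d2 and Cry2 dipped at 6 h by 0.36, 0.30 and 0.31 and rose again by 0.45, 0.43 and 0.30 from 6 h to 24 h. Rora, an activator of Arntl, and Bhlhe40, a repressor, rose late, by 0.49 (adjusted p = 0.00722) and 0.22 (adjusted p = 0.03). Hlf, an output factor, fell late, with a difference of -0.53 (adjusted p = 1.67e-05). The 6 h call of Dbp was lost under 8 of the 18 alternatives and the 24 h call of Rora under 3, among them without batch 4 and without batch 8.

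Early rises were smaller and more spread out. Tob2, which slows the cell cycle and shortens messages, had the largest rise at 6 h, from 5.52 to 6.84 (median 5.88) at 1 h to 5.42 to 7.22 (median 6.70) at 6 h and 6.36 to 7.14 (median 6.56) at 24 h. The 1 h and 6 h groups overlapped: the lowest array of all was a 6 h array of batch 6, and 6 h arrays of every batch but 7 lay below the top of the 1 h range. The difference was 0.69 ± 0.12 (SE, adjusted p = 0.000246) at 6 h and 0.66 ± 0.12 (SE, adjusted p = 0.000158) at 24 h, higher in 7 of 7 batches both times. With the mean of its 4 probe sets the differences were 0.36 and 0.39. Zfp82, a zinc finger gene, rose by 0.64 ± 0.09 (SE, adjusted p = 2.25e-05) at 6 h, with arrays at 4.09 to 5.05 (median 4.65) at 1 h and 4.91 to 5.65 (median 5.29) at 6 h. Zfp790 rose by 0.55 (adjusted p = 1.42e-05), Purg, a purine-rich element binding gene, by 0.48 (adjusted p = 0.00147), and B3galnt2, a glycosyltransferase, by 0.54 (adjusted p = 0.000103). Ogt, the enzyme that adds GlcNAc to nuclear proteins, rose by 0.56 (adjusted p = 0.00111), but 1 of its 4 probe sets went the other way by more than 0.1.

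Zinc finger genes were among the early rises, as a list put together after the values were seen. Of 167 measured genes named Zfp, 21 rose and 1 fell at 6 h, and 25 rose and 2 fell at 24 h, beside 1.54% and 4.90% of all genes that rose. Their median was 0.07 at both times, beside 0.00 and 0.01 for all genes. At 6 h 28 rose and none fell without the 4 arrays with high Ins2, and at 24 h 30 rose and 4 fell. Of 12 interferon response genes 2 rose at 6 h: Irf1, a transcription factor, by 0.38 (adjusted p = 0.00851), and Stat2 by 0.37 (adjusted p = 0.0322). The count was 1 without the 4 arrays with high Ins2 and without a batch term, 0 at its lowest, and moved by over 1.5 times without batch 5, 6, 8 or 10.

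Some mitosis genes rose at 6 h. Of 23 measured, 7 rose at 6 h, among them the kinases Plk1 (0.36, adjusted p = 0.0166) and Aurka (0.36, adjusted p = 0.0194), the motor Kif20a (0.38, adjusted p = 0.00238) and Cdc20, which starts anaphase (0.35, adjusted p = 0.00564). The list's median was 0.20, beside 0.00 for all genes, of which 1.54% rose and 1.32% fell. Of 24 DNA replication genes 3 fell at 6 h, the helicase subunit Mcm4 (-0.20, adjusted p = 0.0183), the loading factor Cdc6 (-0.34, adjusted p = 0.0356) and the polymerase subunit Pola1 (-0.32, adjusted p = 0.00256), with a list median of -0.12. Over the alternatives the mitosis count ran from 0 to 14 and the replication count from 1 to 10. The first moved by over 1.5 times without batch 4, 6, 9 or 10 and the second without batch 5, 8, 9 or 10. Averaging the arrays of each batch and time left 3 mitosis and 2 replication genes.

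Several genes of the amino acid and integrated stress response were low at 6 h. Of 23 measured, 5 fell and 1 rose at 6 h, 6 rose and none fell from 6 h to 24 h, and 5 rose and 2 fell at 24 h against 1 h. Among all genes 1.32% fell and 1.54% rose at 6 h, 3.38% rose and 1.03% fell from 6 h to 24 h, and 4.90% rose and 2.47% fell at 24 h against 1 h. Without a batch term 3 fell at 6 h, 3 rose from 6 h to 24 h, and 3 rose and 1 fell at 24 h, and both counts of 24 h rises moved by over 1.5 times without batch 8. Chac1, an enzyme that degrades glutathione and a target of ATF4, lay at 6.83 to 8.21 (median 7.52) at 1 h, at 6.15 to 6.93 (median 6.65) at 6 h, and at 6.79 to 7.78 (median 7.16) at 24 h. Only a 1 h array of batch 7 reached into the 6 h range, and the 24 h arrays overlapped both. Chac1 differed by -0.97 ± 0.10 (SE, adjusted p = 9e-09) at 6 h and rose by 0.60 ± 0.10 (SE, adjusted p = 9.99e-05) from 6 h to 24 h. Its 24 h difference from 1 h was -0.37 (adjusted p = 0.0114), a call lost under 4 of 18 alternatives, among them without batch 4 and without batch 10.

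Trib3, a pseudokinase induced by ATF4, lay at 5.13 to 6.32 (median 5.77) at 1 h, at 4.76 to 5.47 (median 5.07) at 6 h, and at 4.89 to 7.33 (median 5.70) at 24 h. The 24 h arrays spread most, with batch 8 highest. Trib3 fell by 0.74 at 6 h (adjusted p = 0.000103) and rose by 0.78 ± 0.12 (SE, adjusted p = 2.81e-05) after it, in 7 of 7 batches. The 24 h difference from 1 h was 0.04 and was not called, but it differed between batches (time by batch adjusted p = 0.0372). Atf4 itself differed by -0.34 (adjusted p = 0.00339) at 6 h, and Ppp1r15a, the phosphatase subunit that restores translation, by -0.47 (adjusted p = 4.62e-05). The 5 rises at 24 h against 1 h were those of Ddit3 (CHOP), the serine synthesis enzyme Psph, the amino acid transporter Slc38a2, Cebpg and Nupr1, by 0.54, 0.34, 0.32, 0.35 and 0.65. Of these Slc38a2 and Nupr1 were late, and Cebpg had already risen at 6 h.

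Genes of other kinds dipped at 6 h as well. Bach1, a haem-sensing repressor of antioxidant genes, went from a median of 7.72 to 7.13 and back to 7.55, a fall of 0.55 (adjusted p = 5.71e-05) and a rise of 0.44 (adjusted p = 0.000677). Mnt, an antagonist of Myc, went from 7.10 to 6.65 and 7.10, lower at 6 h in 7 of 7 batches and higher again in 7 of 7. The differences of -0.50 and 0.47 were -0.25 and 0.23 with the mean of its 2 probe sets. The uracil glycosylase Ung differed by -0.46 (adjusted p = 0.000891) at 6 h, Vegfa, the vascular growth factor, by -0.43 (adjusted p = 0.0103), and the retinoblastoma gene Rb1 by -0.31 (adjusted p = 0.00291). All 3 rose from 6 h to 24 h, by 0.40, 0.46 and 0.30. Vegfa's 6 h call was lost without batch 10 and without the 4 arrays with high Ins2 (adjusted p up to 0.0749). The 9 transient peaks included the nuclear RNA Neat1, which rose by 0.53 (adjusted p = 0.0078) and fell by 0.50 afterwards, the chromatin reader Brd2 (0.25, adjusted p = 0.0111) and the actin-sensing coactivator Mrtfa (0.23, adjusted p = 0.0192).

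**Figure D2:**
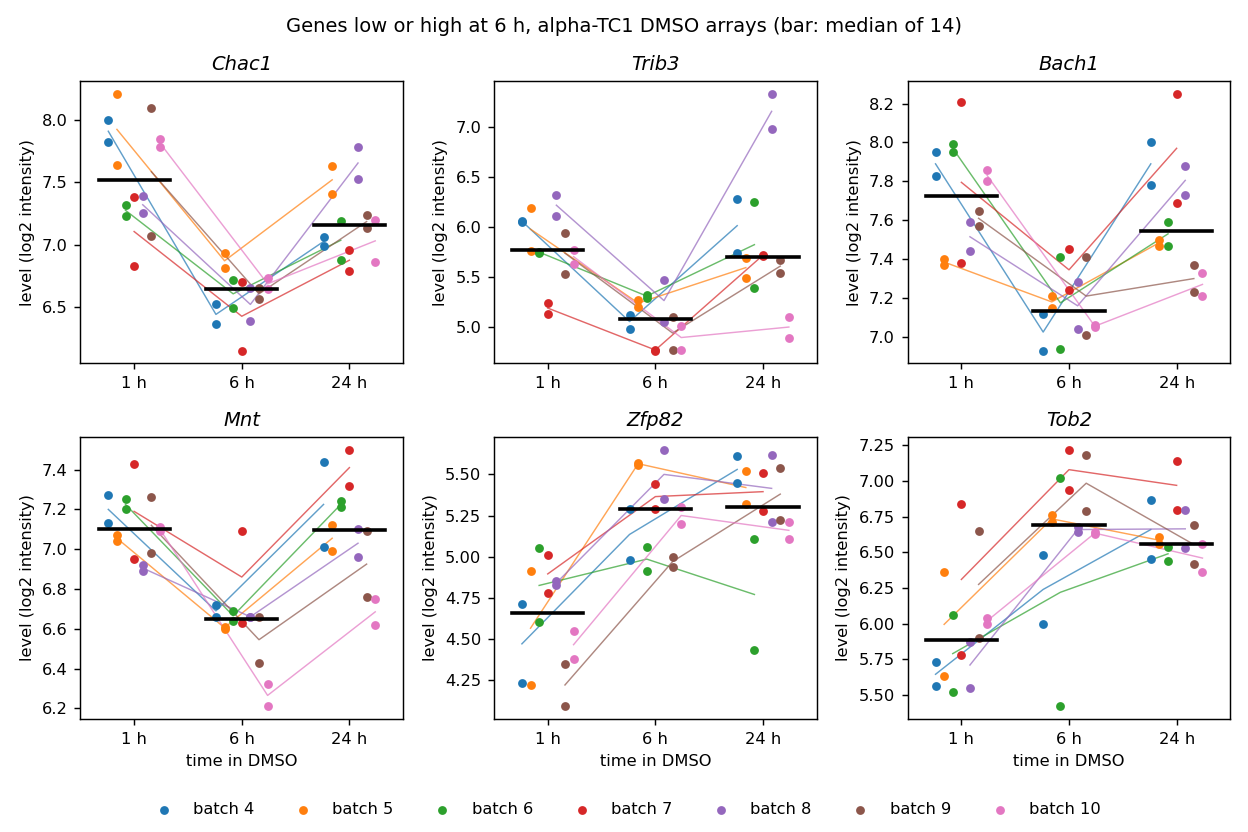
Log2 intensity of 4 genes that were low at 6 h (Chac1, Trib3, Bach1, Mnt) and 2 that rose early (Zfp82, Tob2) on each alpha-TC1 DMSO array at 1, 6 and 24 h, coloured by batch with lines through batch means and black bars at the median of 14. The Chac1 median goes from 7.52 to 6.65 and back to 7.16, while Tob2 stays up at 24 h.

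Many genes of glycolysis and the response to low oxygen rose late. Of 23 measured none rose at 6 h and 1 fell (Vegfa), and 12 rose and none fell at 24 h against 1 h, beside 4.90% of all genes that rose. The list's median at 24 h was 0.27, beside 0.01. Bnip3, which drives mitochondrial clearance, lay at 7.90 to 9.33 (median 8.42) at 1 h, at 7.81 to 9.38 (median 8.30) at 6 h, and at 7.92 to 10.97 (median 9.19) at 24 h. The lowest arrays were alike at all times, and the top of the range moved up at 24 h. The difference at 24 h was 0.87 ± 0.18 (SE, adjusted p = 0.00103), but in batches 4, 6, 7 and 8 it was 2.01, 0.94, 1.17 and 1.80, and in batches 5, 9 and 10 it was 0.09, 0.12 and -0.06. In batch 6 the 2 arrays at 24 h lay at 8.89 and 10.70, the first of them within that batch's 1 h range of 8.51 to 9.20. The test of time by batch, added after the values were seen, did not call Bnip3 (adjusted p = 0.174).

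Ndrg1, a stress gene that low oxygen induces, had its highest 24 h differences in the same batches as Bnip3, 1.72, 1.12, 0.78 and 2.06 in batches 4, 6, 7 and 8 against 0.29, -0.15 and -0.14 in batches 5, 9 and 10. It lay at 5.30 to 6.41 (median 5.94) at 1 h, at 4.87 to 6.35 (median 5.74) at 6 h, and at 5.05 to 8.24 (median 6.54) at 24 h. At 24 h both arrays of batch 8 were the highest, and those of batches 5, 9 and 10 lay within the earlier range. The differences were 0.81 ± 0.17 (SE, adjusted p = 0.000875) against 1 h and 1.02 ± 0.17 (SE, adjusted p = 8.16e-05) against 6 h, and the time by batch test gave an adjusted p of 0.00941. Of the list, 6 members were called without a batch term, and 6 to 15 over all alternatives. Without the 4 arrays with high Ins2, 9 were called.

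The other 10 rose by smaller amounts. The glucose transporter Slc2a1 differed by 0.47 (adjusted p = 0.000708), the glycolytic enzymes Pfkl, Pfkp, Aldoa and Pkm by 0.47, 0.20, 0.13 and 0.27, and Pdk1, which keeps pyruvate out of mitochondria, by 0.47 (adjusted p = 0.0374). Ero1a, an oxidase of protein folding, differed by 0.58 (adjusted p = 0.0011), the collagen hydroxylase P4ha2 by 0.48 (adjusted p = 2.73e-05), the oxygen sensor Egln1 by 0.36 (adjusted p = 0.00156) and the mTORC1 inhibitor Ddit4 by 0.64 (adjusted p = 7.03e-05). Plod1, a lysyl hydroxylase outside the list, rose by 0.59 ± 0.07 (SE, adjusted p = 1.87e-07), in 7 of 7 batches. Ldha, the enzyme that makes lactate, spread from 6.07 to 9.74 at 24 h and was not called (0.58, adjusted p = 0.0528); its differences were unequal between batches (adjusted p = 0.00569).

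Promoters of 3 of these genes are shown because the core ACGTGC, or GCACGT on the other strand, holds the letters that HIF is known to bind. The stretches are chr7:138909507-138909756 for Bnip3 and chr14:45318573-45318822 for Ero1a, both on the minus strand, and chr4:119108495-119108744 for Slc2a1 on the plus strand, from RefSeq on GRCm38.p6, each the 250 bases before the gene's start with matches in capitals.
Bnip3: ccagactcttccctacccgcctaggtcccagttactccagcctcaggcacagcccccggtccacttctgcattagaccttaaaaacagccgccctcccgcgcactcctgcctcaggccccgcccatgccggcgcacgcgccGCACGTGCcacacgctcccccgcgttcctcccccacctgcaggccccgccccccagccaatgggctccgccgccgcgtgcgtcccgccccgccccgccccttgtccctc
Ero1a: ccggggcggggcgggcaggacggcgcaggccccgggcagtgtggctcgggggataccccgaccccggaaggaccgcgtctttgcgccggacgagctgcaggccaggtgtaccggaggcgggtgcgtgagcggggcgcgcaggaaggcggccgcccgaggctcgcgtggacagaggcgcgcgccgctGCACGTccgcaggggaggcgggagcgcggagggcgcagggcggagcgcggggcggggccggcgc
Slc2a1: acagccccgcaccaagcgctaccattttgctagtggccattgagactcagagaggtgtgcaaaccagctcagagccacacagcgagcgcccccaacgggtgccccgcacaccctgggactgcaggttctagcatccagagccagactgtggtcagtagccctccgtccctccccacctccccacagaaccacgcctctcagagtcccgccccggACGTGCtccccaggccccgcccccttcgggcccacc
In Bnip3 the 2 matches lie on opposite strands and overlap each other, and the same letters hold the E-box CACGTG. The core was found in 6 of the 11 risen members with a promoter in the table (Slc2a1, Bnip3, Egln1, Ero1a, P4ha2 and Ddit4), in 24 of 146 promoters of genes with a late rise (16.4%) and in 6.22% of the 9430 measured genes with a promoter. No binding was measured.

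Targets of FOXO factors, which become active when growth factor signals or nutrients run short, rose late in part. Of 17 measured, 6 rose and 1 fell at 24 h against 1 h, and 8 rose and none fell against 6 h, beside 4.90% and 3.38% of all genes that rose. Among all genes 2.47% and 1.03% fell. How far the counts of this list move under the alternatives is not given. Ccng2, a cyclin that holds cells in arrest, was the gene with the largest rise at 24 h. It lay at 6.44 to 7.31 (median 6.94) at 1 h, at 6.37 to 7.64 (median 7.12) at 6 h, and at 7.06 to 9.04 (median 7.79) at 24 h. Only an array of batch 5 lay below the top of the 1 h range, and arrays of batches 5, 6, 9 and 10 lay below the top of the 6 h range. Ccng2 differed by 1.01 ± 0.14 (SE, adjusted p = 4.43e-06), 2.02-fold, higher in 7 of 7 batches, with a size that differed between batches (time by batch adjusted p = 0.0168).

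Fbxo32, a ubiquitin ligase of muscle wasting and a FOXO target, lay at 4.80 to 5.98 (median 5.26) at 1 h, at 4.40 to 5.57 (median 5.12) at 6 h, and at 4.92 to 7.30 (median 6.35) at 24 h. Batch means at 24 h were above 1 h by 0.47 to 1.89 in 6 batches, and in batch 10 the difference was -0.46. It differed by 0.86 ± 0.14 (SE, adjusted p = 4.3e-05) against 1 h and by 1.05 ± 0.14 (SE, adjusted p = 3.8e-06) against 6 h. Klf15, a glucocorticoid and fasting factor, rose by 0.51 (adjusted p = 0.000567), the mitophagy receptor Bnip3l by 0.34 (adjusted p = 5.38e-05), Foxo3 itself by 0.33 (adjusted p = 0.0498) and the repressor Bcl6 by 0.28 (adjusted p = 0.00438). Cited2, which competes with HIF for its coactivator, fell by 0.23.

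**Figure D3:**
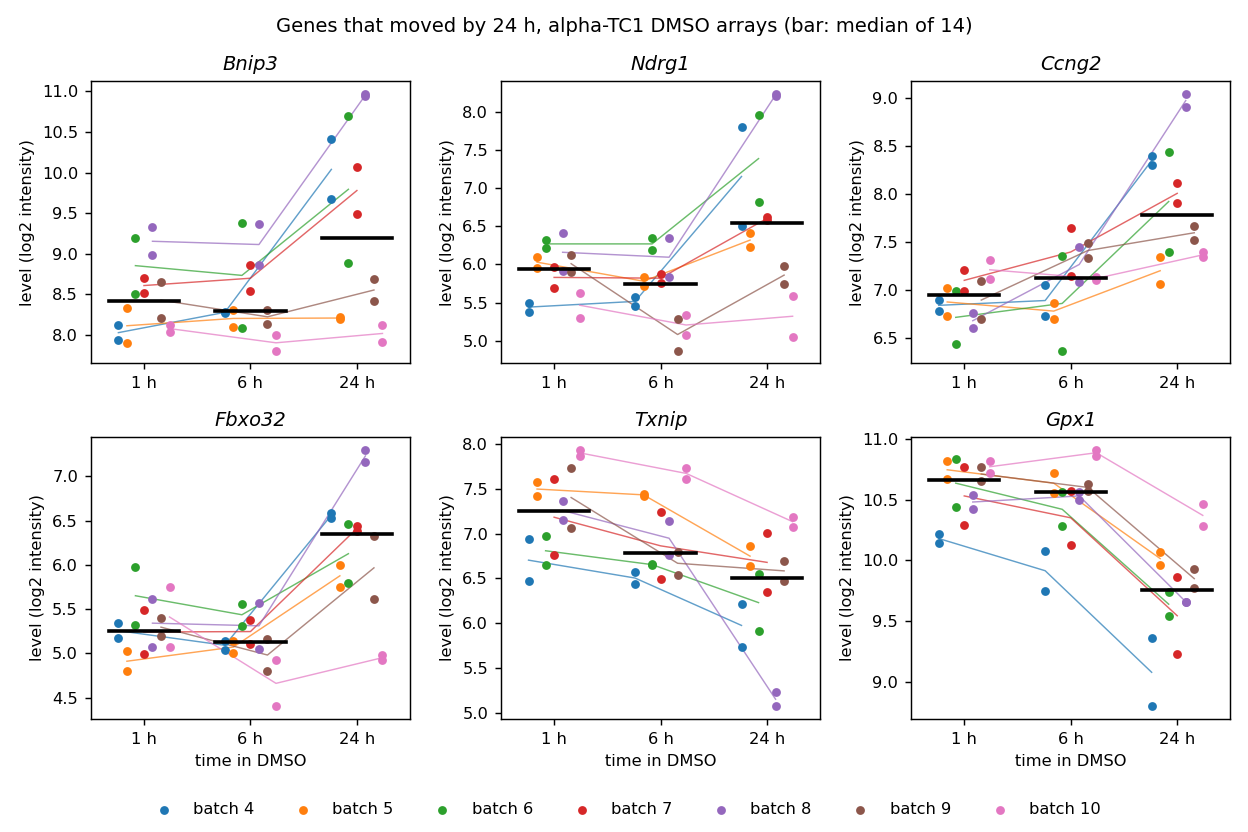
Log2 intensity of 4 late risers (Bnip3, Ndrg1, Ccng2, Fbxo32) and 2 late fallers (Txnip, Gpx1) on each alpha-TC1 DMSO array at 1, 6 and 24 h, coloured by batch with lines through batch means and black bars at the median of 14. The batch means of Bnip3 and Ndrg1 climb in batches 4, 6, 7 and 8 and stay near their start in batch 10. For Bnip3 in batch 6 only 1 of the 2 arrays lies above the earlier range of that batch. Gpx1 drops in every batch, to a median of 9.76.

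Most sterol synthesis genes rose by 24 h, and a few already by 6 h. Of 17 cholesterol synthesis genes measured, 3 rose at 6 h (Idi1, Nsdhl and Srebf2) and 13 at 24 h, and none fell; the list's median was 0.24 at 6 h and 0.42 at 24 h, beside 0.00 and 0.01 for all genes, of which 1.54% and 4.90% rose. Without the 4 arrays with high Ins2, or with arrays averaged, 1 member was called at 6 h, and the count also moved by over 1.5 times without batch 5 or 10. Msmo1, a sterol oxidase, lay at 6.87 to 8.49 (median 7.84) at 1 h and at 8.0 to 10.08 (median 8.53) at 24 h. The groups overlapped, and the batches reached their top at different times. Msmo1 differed by 0.83 ± 0.18 (SE, adjusted p = 0.00177), from -0.28 in batch 4 to 1.96 in batch 7, while batch 8 peaked at 6 h (1.89 above 1 h). Lss, which closes the sterol rings, rose by 0.56 (adjusted p = 0.00178), the isomerase Idi1 by 0.54 (adjusted p = 0.00173), Cyp51 by 0.53 (adjusted p = 0.00198) and Nsdhl by 0.54 (adjusted p = 0.000252). Srebf2, the gene of the pathway's own activator, rose by 0.32 (adjusted p = 0.012) at 6 h.

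The time by batch test called 7 genes between 1 h and 6 h (0.0593% of those tested), and 5 of them are sterol genes: Idi1, Msmo1, Cyp51, Lss and Sqle. The other two are Cenpf and Snhg11. Between 1 h and 24 h it called 38 genes (0.322%). Cdkn1a, the cell cycle inhibitor p21, was among these: its 24 h difference was -1.25 in batch 9, -1.16 in batch 10 and between -0.25 and 0.38 in the others (adjusted p = 0.00117). Of 13 fatty acid synthesis genes 5 rose at 24 h, beside 4.90% of all genes. The count ran from 3 to 7 over the alternatives and moved by over 1.5 times without batch 9 or 10. The desaturase Scd1 led with 0.65 ± 0.10 (SE, adjusted p = 1.58e-05), higher in 7 of 7 batches. Its other probe set, with a mean of 6.02 at 1 h, differed by only 0.11 at 24 h.

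Further rises at 24 h were of several kinds. Serpina1a, Serpina1b and Serpina1c, copies of the alpha-1-antitrypsin gene so alike that probe sets may not tell them apart, rose by 0.60 (adjusted p = 0.00088), 0.85 (adjusted p = 1.7e-05) and 0.81 (adjusted p = 0.00152). Serpina1b and Serpina1c differed between batches (time by batch adjusted p = 9.96e-07 and 2.67e-09), with batch 8 already high at 1 h. Of 12 lysosome and autophagy genes 5 rose at 24 h against 1 h, beside 4.90% of all genes, among them Hexa (0.25, adjusted p = 0.000131), Npc2 (0.30, adjusted p = 0.000809) and Lamp2 (0.25, adjusted p = 0.0023). The count was 2 without a batch term, 3 with arrays averaged and 2 to 7 over all alternatives, and moved by over 1.5 times after quantile normalization, after centring and without batch 6, 7, 8 or 9. Rasd2, a small GTPase of the striatum, rose by 0.75 ± 0.11 (SE, adjusted p = 7.47e-06) in 7 of 7 batches, and the metallothionein Mt1 by 0.51 (adjusted p = 7.47e-06).

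Among the late falls, Txnip had the largest difference from 1 h, while Gpx1 differed more from 6 h (-0.74). Txnip is an inhibitor of thioredoxin whose message is known to track glucose. It lay at 6.47 to 7.94 (median 7.26) at 1 h, at 6.44 to 7.74 (median 6.78) at 6 h, and at 5.07 to 7.19 (median 6.51) at 24 h. The groups overlapped, batches differed in level, and batch 8 was lowest at 24 h. Txnip differed by -0.90 ± 0.13 (SE, adjusted p = 5.58e-06) against 1 h and by -0.61 ± 0.13 (SE, adjusted p = 0.00213) against 6 h, lower in 7 of 7 batches. Its relative Arrdc4, an arrestin-like gene under the same glucose control, fell late, with a difference of -0.58 ± 0.11 (SE, adjusted p = 0.00023), lower in 6 of 7 batches. G6pc2, the islet glucose-6-phosphatase, rose by 0.46 (adjusted p = 0.0023), and the other 5 of 8 measured members of this list were not called at any time. The 2 falls and 1 rise at 24 h against 1 h stand beside 2.47% of all genes that fell and 4.90% that rose. The list's median was 0.01, the same as for all genes. Its counts under the alternatives are not given.

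The Arrdc4 promoter is shown because the letters CACGTG, the E-box that the ChREBP and Mondo factors and many others can bind, stand in it in capitals. It is chr7:68749239-68749488 on the minus strand, from RefSeq on GRCm38.p6.
Arrdc4: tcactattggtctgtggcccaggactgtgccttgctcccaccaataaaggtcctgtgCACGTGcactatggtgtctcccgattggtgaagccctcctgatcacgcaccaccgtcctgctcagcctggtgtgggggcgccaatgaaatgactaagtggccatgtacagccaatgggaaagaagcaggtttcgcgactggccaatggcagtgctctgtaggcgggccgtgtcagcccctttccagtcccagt
The E-box reads the same on both strands. With the letters next to it, this stretch also holds the core ACGTGC, shown above for genes that rose. That core was thus found in 1 of the 2 fallen members of the glucose list (Arrdc4). Of the 2 fallen members of the glucose list, Txnip and Arrdc4, only Arrdc4 holds it in the promoter stretch searched. The E-box was found in 7.77% of the 9430 promoters and in 23 of 146 of the genes with a late rise (15.8%). Its share among the genes with a late fall, such as Arrdc4, was not counted.

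Selenoproteins, enzymes that carry the amino acid selenocysteine, fell in part. The list was made after their values had been seen, because Gpx1, Selenoh and Selenow were among the largest late falls. Gpx1, the main cytosolic glutathione peroxidase, lay at 10.14 to 10.83 (median 10.66) at 1 h, at 9.75 to 10.91 (median 10.56) at 6 h, and at 8.80 to 10.46 (median 9.76) at 24 h. Every batch mean was lower at 24 h than at 6 h, although the groups overlapped across batches. Gpx1 differed by -0.84 ± 0.07 (SE, adjusted p = 1.31e-11), Selenoh by -0.67 ± 0.05 (SE, adjusted p = 7.87e-14), Selenow by -0.62 ± 0.09 (SE, adjusted p = 4.36e-06) and Selenom by -0.35 ± 0.07 (SE, adjusted p = 0.00146), all against 1 h. Among all genes 2.47% fell. The other 17 of 21 measured were not called at 24 h against 1 h, including Gpx4, the lipid peroxidase (0.10), Selenot (-0.03) and Selenop (-0.01). Selenoprotein messages are known to differ in how far they depend on selenium supply. All 4 calls held under each of the 18 alternatives.

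The remaining late falls were of many kinds. Mgp, a secreted inhibitor of calcification, lay at 3.81 to 5.08 (median 4.57) at 1 h and at 3.38 to 4.15 (median 3.81) at 24 h and fell by 0.78 (adjusted p = 2.28e-09), in 7 of 7 batches. Clu, an extracellular chaperone, fell by 0.69 with unequal sizes between batches (adjusted p = 0.00615), the xylulose reductase Dcxr by 0.57, the retinal dehydrogenase Aldh1a1 by 0.54 and the growth factor Tgfb3 by 0.53. Cirbp, a cold-induced RNA-binding protein, fell by 0.60 from 6 h to 24 h (adjusted p = 1.4e-05). Of 15 genes of regulated secretion 2 fell at 24 h, beside 2.47% of all genes: chromogranin A (Chga, -0.20, adjusted p = 0.00416) and Scg3 (-0.16, adjusted p = 0.0302). The count was 0 without a batch term, 1 with arrays averaged or without the 4 arrays with high Ins2, and moved by over 1.5 times without batch 5, 6, 7, 8 or 9. The 6 measured alpha cell markers had no call at any time, with Gcg at -0.19 (adjusted p = 0.0575) at 24 h. Of all genes only 2.86% were called at 6 h, 7.38% at 24 h against 1 h and 4.41% from 6 h to 24 h. The absence of calls among 6 genes therefore does not show that these markers were unchanged.

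**Figure D4:**
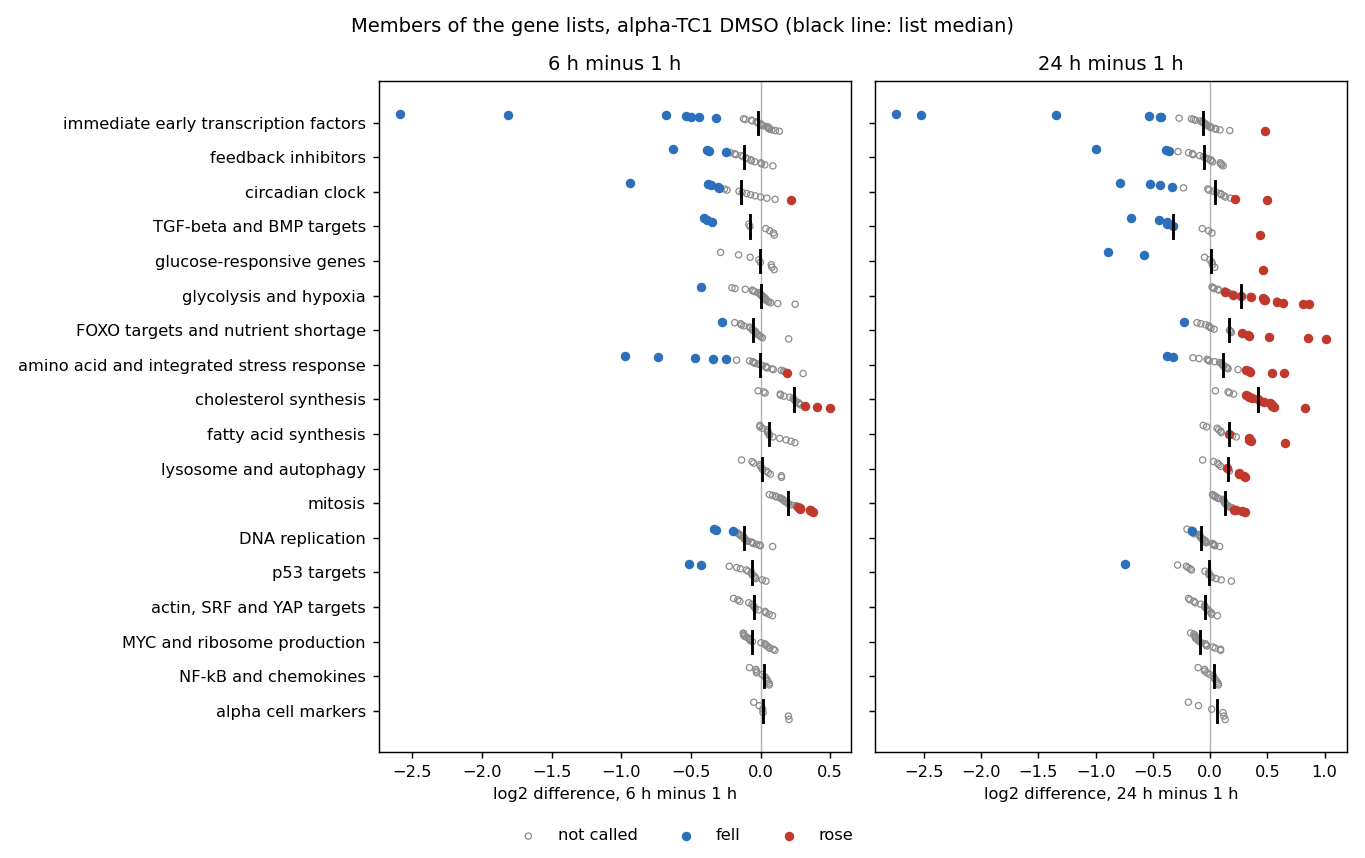
Log2 difference of each measured member of 18 gene lists at 6 h (left) and 24 h (right) against 1 h in alpha-TC1 DMSO arrays (14 a time); filled points were called (red rose, blue fell), open points were not, and black lines mark list medians. Falls of a few immediate early genes dominate at 6 h, and rises of the glycolysis and hypoxia, FOXO and cholesterol lists appear at 24 h.

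Several lists stayed without a call in any comparison: the 13 measured targets of actin, SRF and YAP, the 17 genes of MYC and ribosome production and the 11 of NF-kB and chemokines. Of 17 ER chaperone genes only Herpud1 was called, lower at 6 h (-0.25, adjusted p = 0.0179) and higher again by 0.42, and its 6 h call was lost with arrays averaged or without the 4 arrays with high Ins2. Heat shock genes gave Hsph1 at 6 h (-0.28, adjusted p = 0.00341) and Bag3 at 24 h (-0.31, adjusted p = 9.98e-05), of 10 measured. Of 15 p53 targets, Plk2 and Cdkn1a fell at 6 h, and 1 fell without a batch term, with arrays averaged or without batch 5, 6, 9 or 10. Beside these counts, 1.32% of all genes fell at 6 h and 2.47% at 24 h, both against 1 h. From 6 h to 24 h 3.38% rose. In either direction 2.86% of all genes were called at 6 h, 7.38% at 24 h against 1 h and 4.41% from 6 h to 24 h. The reference genes Actb and Gapdh were not called at any time, with 24 h differences of -0.13 and 0.02.

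The call for somatostatin was among those lost without the 4 arrays of high Ins2. Sst lay at 3.76 to 6.27 (median 4.25) at 1 h and at 3.30 to 4.81 (median 3.69) at 6 h and differed by -0.76 (adjusted p = 0.0192). Without the 4 arrays the difference was -0.50, which was not called, and the call was lost under 5 alternatives in all. The summed intensity of 7 markers of other islet hormone cells, Sst included, was 77.1 to 242.9 at 1 h, 70.4 to 131.2 at 6 h and 69.1 to 101.5 at 24 h. The part of such cells in the Sst difference was not tested.

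Egr1 fell in both lines, and a small set of genes differed between them. In beta-TC3, from the joint fit of both lines, 118 genes rose and 30 fell at 6 h (1.25% called, 0.999% for rises and 0.254% for falls) and 714 rose and 427 fell at 24 h (9.66% called, 6.05% for rises and 3.62% for falls). The difference between the lines' time differences was called for 1 gene at 6 h (0.00847%) and for 66 genes at 24 h (0.559%), 25 with the larger value in alpha-TC1 and 41 with the larger value in beta-TC3. That count of 66 was 10 without a batch term, 101 without batch 4, and 21, 31, 42 and 23 without batches 5, 6, 7 and 10. Egr1 in beta-TC3 had a mean of 8.69 at 1 h and 6.24 at 24 h. The difference there was -2.46 ± 0.19 (SE, adjusted p = 3.23e-16), and the lines differed by -0.28 ± 0.26 (alpha-TC1 minus beta-TC3), which was not called (adjusted p = 0.808). For Gpx1, Txnip, Bnip3 and Ccng2 the lines' differences at 24 h were apart by 0.00 ± 0.15, 0.08 ± 0.21, 0.01 ± 0.30 and 0.13 ± 0.20, none of them called.

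Fos fell less in beta-TC3, with a difference of -0.94 ± 0.17 (SE, adjusted p = 4.97e-05) at 24 h, with means of 7.66 at 1 h and 6.72 at 24 h. The lines differed by -1.59 ± 0.23 (SE, adjusted p = 1.67e-05). Nr4a1 in beta-TC3 differed by -0.38 ± 0.14 (SE, adjusted p = 0.0713), -0.97 ± 0.19 (SE, adjusted p = 0.00398) apart from alpha-TC1, a call lost without a batch term. Its beta-TC3 mean at 1 h was 6.89. Nfil3 and Mgp fell in alpha-TC1 and were not called in beta-TC3, with line differences of -0.78 ± 0.15 (SE, adjusted p = 0.00255) and -0.85 ± 0.13 (SE, adjusted p = 8.27e-05). Skil fell in alpha-TC1 and rose in beta-TC3 by 0.28, -0.60 ± 0.11 (SE, adjusted p = 0.00253) apart, also lost without a batch term. Nfil3 and Mgp were low in beta-TC3 at 1 h, with means of 4.03 and 3.09, below every alpha-TC1 array at 1 h.

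Rasd2 and Klf15 rose in alpha-TC1 and were not called in beta-TC3, with line differences of 0.93 ± 0.15 (SE, adjusted p = 0.000113) and 0.58 ± 0.14 (SE, adjusted p = 0.0289). The first was 0.61 with the mean of all probe sets, and the Klf15 call was lost under 6 of 16 alternatives, among them without the 4 arrays with high Ins2 and without batch 5, 7, 8 or 10. In beta-TC3 Rasd2 and Klf15 had low means, 3.21 and 3.36 at 1 h and 3.04 and 3.28 at 24 h. Meg3, a maternally expressed long RNA, fell in beta-TC3 by 0.79 and differed by 0.10, not called, in alpha-TC1. Its line difference of 0.89 was 0.54 with the mean of all probe sets, and its call was lost under 4 of 15 alternatives, without a batch term or batch 5, 7 or 10. Its 1 h level was 3.27 to 4.08 in alpha-TC1 and 7.90 to 9.02 in beta-TC3. The lactate transporter Slc16a3 and the aldolase Aldoc rose in beta-TC3 by 1.15 and 1.02, and in alpha-TC1 were not called, with differences of 0.01 and 0.16 at low levels (3.33 and 4.30 at 24 h). The line call of Slc16a3 was lost without batch 5, and that of Aldoc under 6 of 15 alternatives, among them without batch 4, 5, 6 or 10. Errfi1 was the only call at 6 h: it fell in alpha-TC1 and rose by 0.36 in beta-TC3, -0.61 ± 0.12 (SE, adjusted p = 0.0124) apart, a call lost under 5 of 16 alternatives, without a batch term or batch 4, 5, 6 or 10.

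**Figure D5:**
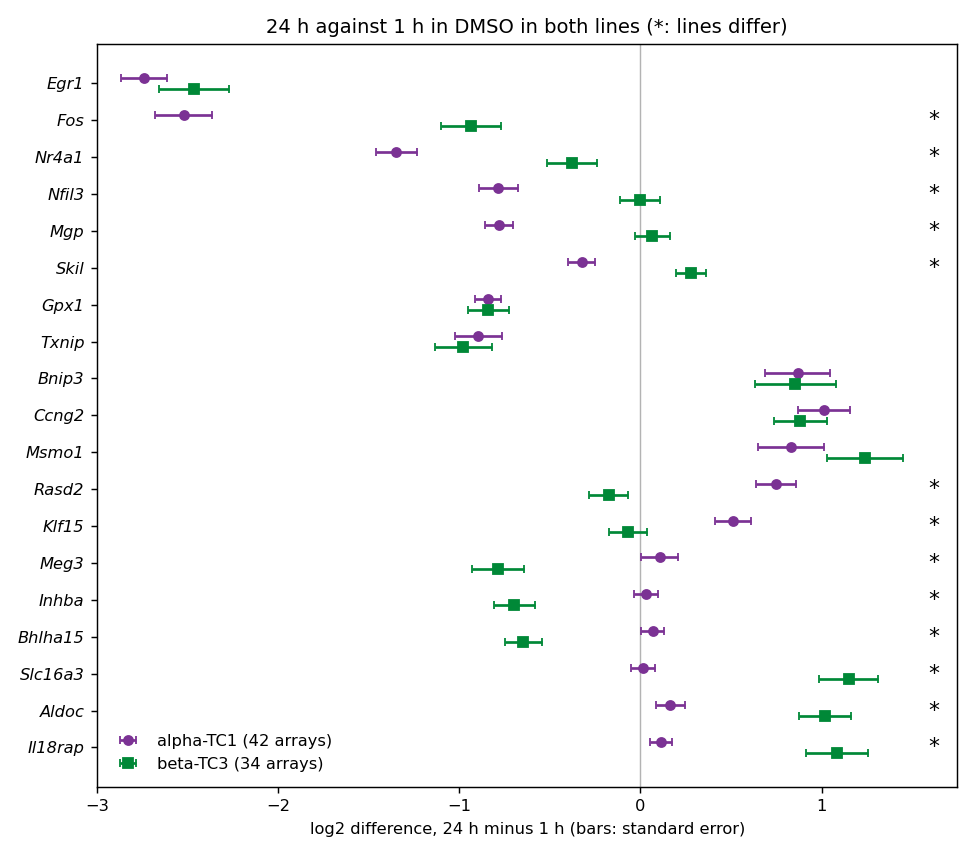
Log2 difference between 24 h and 1 h in DMSO for 19 genes in alpha-TC1 (purple circles, 42 arrays) and beta-TC3 (green squares, 34 arrays, from the fit of both lines), with standard errors; asterisks mark genes whose difference was called between the lines. Egr1, Gpx1, Txnip, Bnip3 and Ccng2 lie close together, and Fos is at -2.52 in alpha-TC1 and -0.94 in beta-TC3.

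Arrays of the same line with compounds give a view of how far these courses recur, although each compound adds its own effect. The mean over a compound's arrays at each time was taken for the 29 compounds. No batch term was used, and some compounds had arrays of different batches at different times. Batch and time are thus partly mixed in these counts. Egr1 was lower at 6 h than at 1 h with 29 of 29 compounds, with a median difference of -1.68, and Fos with 28 of 29. Nr4a1 was lower at 6 h with 18 and higher with 11, with a median of -0.21, and lower at 24 h with 26. At 24 h Gpx1 was lower with 29 of 29, Ccng2 higher with 29 and Fbxo32 with 29 of 29. Txnip was lower with 17 and higher with 12. Cdc20 was lower at 6 h with 23 of 29, against its rise in DMSO.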

How the data were processed

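RNA of alpha-TC1 and beta-TC3 cells was labelled and hybridised to Affymetrix high-throughput mouse arrays. The deposited values are 1 linear intensity per probe set and array, made by the authors with RMA per the submitters' processing notes, which give no version. They ran from 3.96 to 13635 over 22716 probe sets and 594 arrays, and log2 was taken here. Array number, and not a read depth, limits the precision. Of the probe sets, 18003 carry 1 gene symbol in the platform annotation, 287 several and 4426 none, and 17977 were matched to RefSeq by gene ID. The probe set with the highest mean stood for a gene (11807 genes, 4150 with more than 1 probe set).

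Groups came from the sample titles. The 42 alpha-TC1 DMSO arrays were fitted with time and batch in limma 3.58.1 (R 4.3.3), with moderated tests and Benjamini-Hochberg adjustment over all genes at 0.05. Batch is the number in the titles, and what it marks is not given there. The 2 arrays of a batch and time had a consensus correlation of -0.052 after these terms. Line differences came from a joint fit with the 34 beta-TC3 DMSO arrays. The procedure was tested on simulated data. Alternatives varied the batch and plate terms, scaling, probe sets, low genes and arrays fitted, and leaving out 4 arrays with Ins2 above 7 and the time by batch test were added after seeing the data.

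Named genes are the largest consistent changes of each comparison and course (the same sign in 7 of 7 batches for the comparisons), the largest line differences, up to 5 called members per list, the 8 most like Egr1 and a few set genes. Others, mainly further list members, were chosen after their values were seen. Members and lists were chosen with earlier results of these data known, and the selenoprotein and Zfp lists after their values were seen.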

Additional observations from a re-analysis of the deposited data

Results flagged for a closer look

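The change over time was called different between the lines for 66 genes at 24 h and 1 gene at 6 h, by the test of the difference itself (limma, time by line, adjusted p under 0.05); the 6 genes furthest in each direction at 24 h and the 6 h gene are given. Values are the alpha-TC1 log2 difference minus that of beta-TC3, at 24 h against 1 h unless stated. They were -1.59 for Fos, -0.97 for Nr4a1, -1.13 for the lactate transporter Slc16a3, -0.97 for the interleukin receptor subunit Il18rap, -0.91 for the apolipoprotein Apof and -0.85 for the aldolase Aldoc. Positive values were 0.93 for Rasd2, 0.89 for Meg3, 0.76 for Klhl1, 0.74 for the G protein subunit Gng12, 0.73 for the activin subunit Inhba and 0.71 for Bhlha15, a factor of secretory cells. Errfi1 was the single call at 6 h, with -0.61.

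In Meg3, Klhl1, Gng12, Inhba and Bhlha15 the beta-TC3 difference was called (-0.79, -0.61, -0.65, -0.70 and -0.65) and the alpha-TC1 difference was not (0.10, 0.15, 0.09, 0.03 and 0.07). Alpha-TC1 means at 1 h were 3.76, 3.22 and 3.95 for Meg3, Klhl1 and Inhba, below every array's median. A fall can hardly be measured at such levels. Gng12 and Bhlha15 lay at 4.85 and 5.56, and Il18rap at 3.11. Apof fell in alpha-TC1 (-0.37) and rose in beta-TC3 (0.54), and its line difference was lost under 9 of 16 alternatives. Calls were also lost under 6 of 15 for Aldoc (values -0.97 to -0.39), 5 of 16 for Errfi1, 4 of 15 each for Meg3 (values 0.54 to 1.06), Klhl1, Gng12 and Il18rap, 2 of 15 for Inhba, 1 of 15 for Slc16a3 and 1 of 16 for Nr4a1. Those of Fos, Rasd2 and Bhlha15 were called under every alternative run, with 0.61 for Rasd2 and 0.38 for Bhlha15 when all probe sets of a gene were averaged. Groups of 14 arrays were not tested for a single outlying array.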

How the results depend on the processing

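The 18 alternatives reversed none of the 258 called differences of named alpha-TC1 genes, and 121 were called under all 18. Averaging the 2 arrays of a batch and time kept 189 of the 258. Counts moved more. In the order 6 h against 1 h, 24 h against 1 h, 24 h against 6 h, then early, late, transient, continuing and partly reversed courses, the counts of 338, 871, 521, 161, 251, 54, 10 and 4 became 107, 366, 162, 52, 65, 12, 0 and 1 without a batch term, and 740, 1319, 836, 328, 413, 121, 29 and 9 with the array plate as a fixed term. The plate as a random block gave 566 genes at 6 h, and 258 early, 90 transient, 17 continuing and 8 partly reversed. With all alpha-TC1 arrays in the fit the values were 192 at 6 h, 341 from 6 h to 24 h, and 95, 164, 25, 3 and 2 for the 5 courses. Averaged arrays gave 34 transient and 3 continuing genes, centred arrays 6 continuing, the mean of probe sets 2 partly reversed, and beta-TC3 arrays in the fit 4 continuing and 1 partly reversed. Without the 4 arrays with Ins2 above 7, 35 were transient and 7 partly reversed. Leaving out each batch in turn gave ranges of 156 to 329, 549 to 877, 310 to 482, 82 to 172, 141 to 245, 25 to 45, 3 to 8 and 0 to 3 in the same order.

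Line differences, 1 gene at 6 h and 66 at 24 h, became 0 and 10 without a batch term, 8 and 112 with the plate as a random block, 11 and 167 as a fixed term, and 12 and 195 with a batch term for each line. At 6 h 4 genes were called without the arrays with high Ins2, and at 24 h 40 with low genes left out. Without each batch in turn 0 to 4 and 21 to 101 genes were called, the lowest at 24 h without batch 5 and the highest without batch 4. The cause of these shifts was not tested. The fit compares times within batches, and averaging the 2 arrays of a batch and time, a comparison paired by batch, called 259, 789 and 438 genes. No paired analysis was possible by replicate number because the DMSO arrays carry none. Genes near the lowest levels, where a fall can hardly be measured, limit what their values show.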
